A study of Mus musculus with 2 samples.

Results

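The integrated stress response is the programme by which cells slow general protein synthesis and turn on a set of genes for amino acid supply, redox balance and, when stress persists, cell death. It begins with kinases that phosphorylate the translation initiation factor eIF2alpha, which lowers most translation while favouring that of ATF4, a basic leucine zipper (bZIP) transcription factor. ATF4 pairs with other bZIP proteins, above all of the C/EBP family, at composite C/EBP-ATF response elements of its target genes. In the liver the same C/EBP proteins also drive acute-phase and metabolic genes, and in cultured mouse cells mTORC1 is known to raise ATF4 activity.

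The 10 genes described here are regulators of this response, chosen by name and with earlier results of these data known. They are Atf4, the partners Cebpb, Cebpg and Ddit3, the related factor Atf5, and the regulatory targets Nupr1, Trib3, Chac1, Sesn2 and Ddit4. Enzyme genes among the targets, other than Chac1, were left out of the choice. All 10 were found among the 35275 gene IDs of the deposited tables, 1 ID each, and all 10 reached the minimum of 1 FPKM in both libraries. FPKM, the deposited unit, divides the fragments or reads of a gene by its transcript length and by the size of the library. The values come from 2 livers of C57BL/6 mice aged 10 months. One library is labelled wild type; the other is labelled LTsc1KO, with the genotype given as TSC1-/-, and the series describes it as a liver-specific knockout of Tsc1, a restraint on the growth kinase mTORC1. What drives the deletion, and which exons it removes, is not given in these sources. The series text speaks of tumours while both labels say liver, and the sources do not say whether tumour was taken.

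Each genotype has 1 library, which leaves no replicate check, no test across animals and no p-value, and any difference may be one between 2 animals. All intervals are exact 95% intervals from recovered or estimated read numbers, so they hold counting error alone. The libraries held 27919645 reads (wild type) and 29351163 reads (LTsc1KO), recovered from the values. Tsc1 itself had an FPKM of 4.90 in the wild-type-labelled library and 4.79 in the LTsc1KO-labelled library, so the targeted gene does not check the labels, and all directions below depend on them. Expressed genes had a median log2 ratio of 0.70, so directions are also given after median centring, in which the median ratio of well-measured genes becomes 0, a shift of -0.72 on the log2 scale. In bulk tissue, fewer cells of a type and less RNA per cell cannot be told apart.

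Of the 10 regulators, 6 passed the upper 2-fold limit on the scale of log2(FPKM + 1), higher in the LTsc1KO-labelled library, and 1 passed the lower limit. Every count of genes at least 2-fold higher or lower is on this scale, whereas a fold given for a gene is the plain ratio of FPKM, so a gene of low level can exceed a 2-fold ratio of FPKM and miss the limit. The 6 were Nupr1, Trib3, Ddit4, Ddit3, Sesn2 and Chac1, and the lower one was Cebpb. Atf4, Atf5 and Cebpg lay between the limits. Of the 12395 genes that reached 1 FPKM in either library (the expressed genes), 35.6% passed the upper limit and 6.15% the lower one. After median centring, with the 1 FPKM minimum applied again, 11851 genes were expressed and the shares were 15.6% and 12.7%. The counts among the 10 regulators were again 6 and 1, for the same genes. The median log2 ratio of the 10 was 2.32, or 1.65 after median centring, beside 0.70 and 0.07 for all expressed genes. Because the 10 were chosen with earlier results of these data known, these values describe them and are not independent support.

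**Figure D1:**
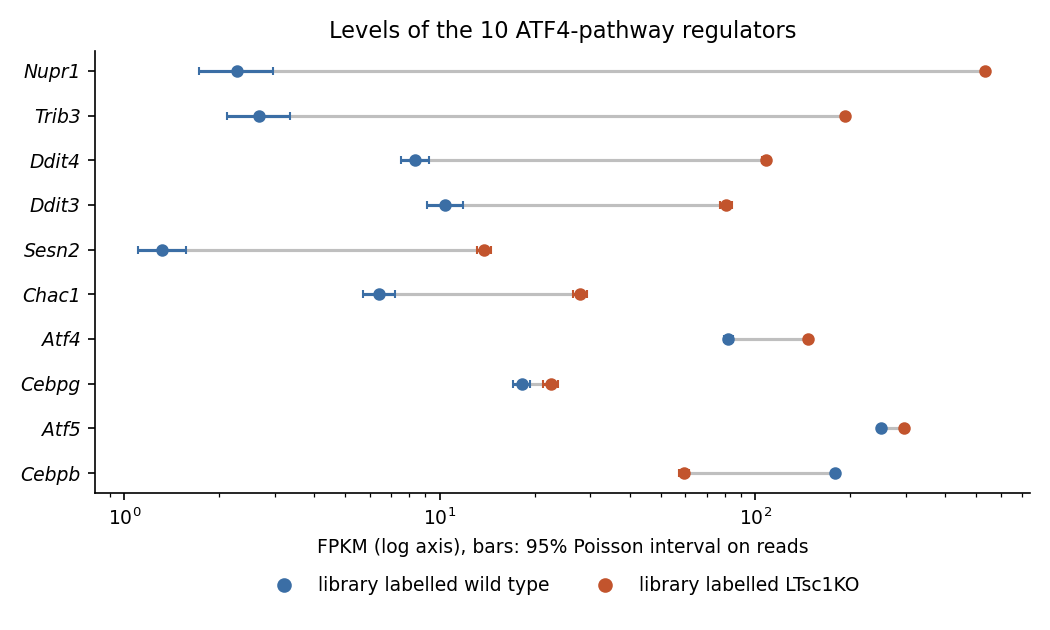
FPKM of the 10 regulators on a log axis, blue for the wild-type-labelled library and orange for the LTsc1KO-labelled library, with 95% Poisson intervals on reads and genes ordered by log2 ratio. Nupr1 spans 2.28 to 534, while the 2 points of Atf5 lie at 250 and 295 and those of Cebpb run the other way.

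Atf4, the transcription factor at the head of the response (ENSMUSG00000042406; plus strand of chromosome 15 from 80255184 to 80257541 in the GENCODE M21 annotation of GRCm38), had an FPKM of 82.0 in the wild-type-labelled library and 147 in the LTsc1KO-labelled library. The level was 1.79-fold higher (interval 1.72 to 1.86), a log2 ratio of 0.83. That ratio exceeded those of 56.5% of expressed genes, so the mRNA of Atf4 differed about as much as the middle of the transcriptome. After median centring it stood at 0.12, and with both libraries rescaled to the same total FPKM at 1.01, just past the 2-fold limit. These values are mRNA levels and hold no measure of how much of the mRNA was translated. Over these 2 libraries, the expressed genes closest to Atf4 in the plane of log2(FPKM + 1) were Habp2 (81.9 and 145), Gstm2 (81.5 and 154) and Agpat3 (80.0 and 140), at distances of 0.01, 0.07 and 0.07; with 2 libraries such closeness says only that the levels are alike.

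Atf5, a close relative of ATF4 that is likewise controlled at translation and is known for the mitochondrial stress response, was the most abundant of the 10 in the wild-type-labelled library. It had an FPKM of 250 there and 295 in the LTsc1KO-labelled library (12410 and 15377 reads), 1.18-fold higher (interval 1.15 to 1.21). The log2 ratio of 0.24 was above those of 29.3% of expressed genes and turned to -0.48 after median centring. Atf5 thus lay below the typical gene in its difference, although its level was above those of 96.8% and 97.1% of expressed genes in the wild-type-labelled library and the LTsc1KO-labelled library.

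The bZIP partners of ATF4 went in different directions. Cebpb encodes C/EBP-beta, which partners ATF4 and in the liver is also known as a driver of acute-phase genes. It had an FPKM of 179 in the wild-type-labelled library and 59.4 in the LTsc1KO-labelled library (7522 and 2620 reads). It was 3.02-fold lower (interval 2.89 to 3.16), a log2 ratio of -1.58, below which lay 3.29% of expressed genes, and stood at -2.28 after median centring. Cebpb (ENSMUSG00000056501; plus strand of chromosome 2, 167688915 to 167690418) shares 312 of its 1504 exonic bases with Tmem189 on the opposite strand. Tmem189 itself had an FPKM of 10.0 and 3.13, and since the sources do not say whether strand was used in counting, reads from the shared bases cannot be assigned to either gene.

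Cebpg encodes C/EBP-gamma, a short family member that forms dimers with ATF4 at amino acid response genes. Its FPKM was 18.1 in the wild-type-labelled library and 22.4 in the LTsc1KO-labelled library, 1.24-fold higher (interval 1.14 to 1.35). The log2 ratio of 0.29 became -0.38 after median centring, so like that of Atf5 its direction depends on the scaling.

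Ddit3 encodes CHOP, a C/EBP-like protein that is a target of ATF4, a partner of C/EBP proteins and a promoter of cell death under lasting stress. It had an FPKM of 10.4 in the wild-type-labelled library and 80.7 in the LTsc1KO-labelled library (238 and 1942 reads). It was 7.76-fold higher (interval 6.78 to 8.92), with a log2 ratio of 2.84 that exceeded those of 96.7% of expressed genes. Its exons share 68 bases with Mars, a methionyl-tRNA synthetase gene on the opposite strand, which had an FPKM of 22.0 and 41.5.

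Because Cebpb was lower and Ddit3 higher, their proportion differed between the libraries. In the wild-type-labelled library the FPKM of Cebpb was 17.2 times that of Ddit3, whereas in the LTsc1KO-labelled library it was 0.736 times. Counted per kilobase of all annotated exons, the proportion was 36.0 and 1.54, so which of the 2 was more abundant in the LTsc1KO-labelled library depends on the gene length used. Atf4 went from 0.458 to 2.47 times the FPKM of Cebpb, or from 0.335 to 1.81 times per kilobase of all annotated exons. The order of these 2 was therefore opposite in the 2 libraries under both lengths.

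**Figure D2:**
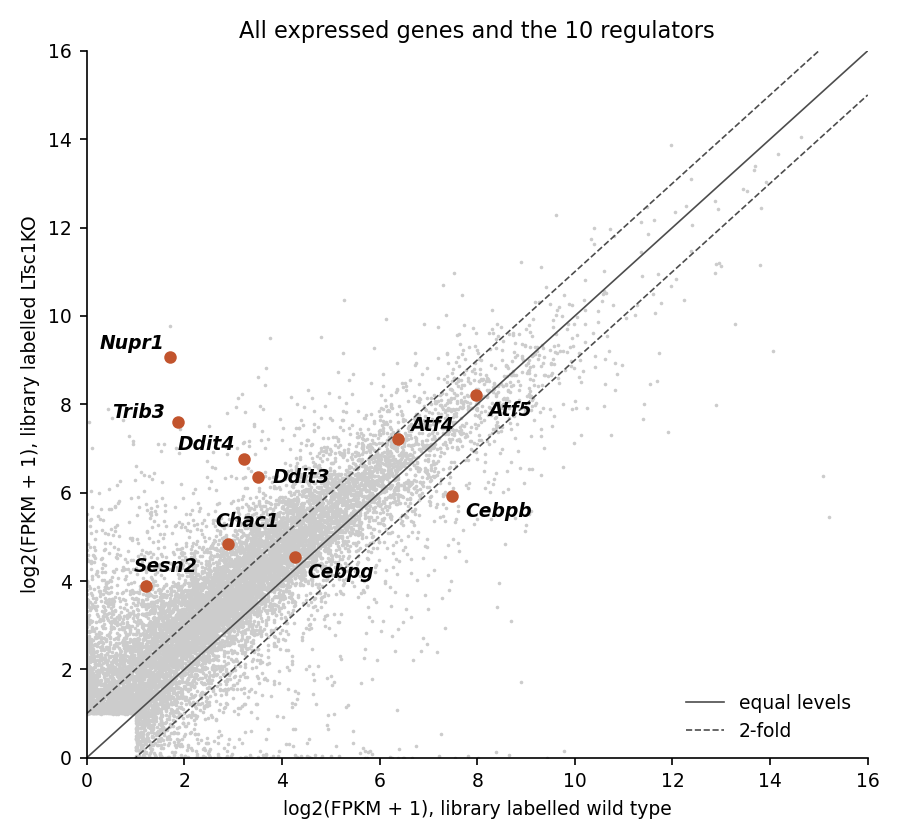
Each gray point is 1 of 12395 expressed genes, with log2(FPKM + 1) in the wild-type-labelled library on the x axis and in the LTsc1KO-labelled library on the y axis; the 10 regulators are orange, the solid line marks equal levels and the dashed lines 2-fold. Nupr1 and Trib3 lie at the upper left edge of the cloud, Atf4 and Atf5 within it, and Cebpb below the lower 2-fold line.

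Nupr1 encodes a small stress-induced chromatin protein and is a known target of ATF4. It had the largest difference of the 10, with an FPKM of 2.28 in the wild-type-labelled library (56 reads) and 534 in the LTsc1KO-labelled library (13766 reads). This was 234-fold higher (interval 180 to 310), and its log2 ratio of 7.35 ranked 4 of 12395 expressed genes. Its level was above those of 29.1% of expressed genes in the wild-type-labelled library and of 98.7% in the LTsc1KO-labelled library, where it was the most abundant of the 10 by FPKM.

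Trib3 encodes a pseudokinase induced by ATF4 and CHOP that binds AKT and, in a feedback loop, restrains ATF4. Its FPKM was 2.68 in the wild-type-labelled library (79 reads) and 192 in the LTsc1KO-labelled library (5960 reads). It was 71.8-fold higher (interval 57.5 to 90.8), and its log2 ratio of 5.72 ranked 14 of 12395 expressed genes. By level Trib3 stood above 31.9% of expressed genes in one and above 95.3% in the other, a span close to that of Nupr1.

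Chac1 encodes an enzyme that degrades glutathione and is one of the best known targets of ATF4 and CHOP. Its FPKM was 6.41 in the wild-type-labelled library and 27.8 in the LTsc1KO-labelled library (293 and 1336 reads), 4.34-fold higher (interval 3.82 to 4.94). The log2 ratio of 1.96 was the smallest of the 6 higher regulators and exceeded those of 90.6% of expressed genes.

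Promoter sequences of these genes were searched for the core of the C/EBP-ATF response element, TGATGNAA, on both strands. RefSeq (GRCm38.p6) gave windows of 250 bases before to 50 after the annotated start for all 10 regulators (11 windows, 2 for Atf5). The element was found in 3 of the 10: in Nupr1 at -110 to -103 and in Chac1 at -193 to -186, both as TTGCATCA, and in Trib3 as TTACATCA at 14 to 21 past the start. Of 27025 genes with such windows, 4.51% held a match. With the third base free (TGNTGNAA, tried after the sequences were seen), Sesn2 matched as well and Trib3 gained a match at -33 to -26, against 16.6% of all genes. A match is a description of the sequence and not evidence that a factor binds, and no match says only that these letters are not in the window. Binding was not measured.

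The 250 bases before the start are shown for Nupr1, Trib3, Chac1 and Sesn2, the regulators with a match to TGNTGNAA in that stretch, each 5′ to 3′ on the strand of the gene with the match in capitals. They lie at chr7:126625471-126625720 (minus strand), chr2:152344061-152344310 (minus strand), chr2:119350992-119351241 (plus strand) and chr4:132510457-132510706 (minus strand), GRCm38.p6. In Nupr1 and Chac1 the capitals are the reverse complement of TGATGNAA, while in Trib3 and Sesn2 they match only with the third base free; the TGATGNAA match of Trib3 lies past the start and outside the bases shown.
Nupr1: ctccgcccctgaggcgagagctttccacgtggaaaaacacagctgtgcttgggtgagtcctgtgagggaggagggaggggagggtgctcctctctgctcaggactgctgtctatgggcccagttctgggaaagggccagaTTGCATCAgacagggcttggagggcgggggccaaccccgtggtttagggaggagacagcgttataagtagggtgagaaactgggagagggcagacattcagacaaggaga
Trib3: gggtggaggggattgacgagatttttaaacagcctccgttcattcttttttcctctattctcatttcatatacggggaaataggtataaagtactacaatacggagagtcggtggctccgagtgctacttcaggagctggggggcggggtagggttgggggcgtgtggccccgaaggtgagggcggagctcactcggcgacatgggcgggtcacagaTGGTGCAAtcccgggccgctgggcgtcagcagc
Chac1: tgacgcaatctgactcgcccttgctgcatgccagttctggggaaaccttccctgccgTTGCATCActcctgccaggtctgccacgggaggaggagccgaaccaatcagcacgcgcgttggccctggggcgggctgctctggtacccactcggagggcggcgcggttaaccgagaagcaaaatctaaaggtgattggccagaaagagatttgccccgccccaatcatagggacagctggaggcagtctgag
Sesn2: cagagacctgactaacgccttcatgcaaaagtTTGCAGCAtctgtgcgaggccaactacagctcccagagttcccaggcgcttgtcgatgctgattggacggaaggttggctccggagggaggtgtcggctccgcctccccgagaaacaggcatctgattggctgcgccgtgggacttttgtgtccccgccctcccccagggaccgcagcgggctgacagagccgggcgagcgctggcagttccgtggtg

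Sesn2 and Ddit4 are stress-induced restraints on mTORC1. Sestrin 2, the product of Sesn2, senses leucine and holds back the GATOR2 complex, while DDIT4, also called REDD1, acts through the TSC complex, of which the Tsc1 product is a part. Sesn2 had the lowest FPKM of the 10 in both libraries, though not the lowest level per kilobase of all annotated exons, with an FPKM of 1.32 in the wild-type-labelled library and 13.8 in the LTsc1KO-labelled library (128 and 1406 reads). It was 10.4-fold higher (interval 8.71 to 12.6), a log2 ratio of 2.67 on the scale with the pseudocount, above those of 96.0% of expressed genes.

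Ddit4 had an FPKM of 8.35 in the wild-type-labelled library and 108 in the LTsc1KO-labelled library (393 and 5338 reads). It was 12.9-fold higher (interval 11.7 to 14.4), and its log2 ratio of 3.54 was the third largest of the 10, above those of 98.3% of expressed genes. After median centring the log2 ratios of Sesn2 and Ddit4 were 2.02 and 2.83, so both mTORC1 restraints were higher in the library labelled for the loss of Tsc1 under either scaling.

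A list of 16 partners of SESN2, DDIT4 and TRIB3 held genes for GATOR, TSC, mTORC1 and AKT proteins and also Txnip and Keap1. Of the 16 genes, 3 passed the upper limit and 1 the lower (1 and 1 after median centring). Mtor, the kinase, was at an FPKM of 7.65 and 29.2, Sec13 at 55.8 and 128 and Tsc2 at 3.79 and 8.94; after median centring Mtor stood at 1.12 on the log2 scale, and Sec13 (0.47) and Tsc2 (0.43) lay within the limits. The lower gene was Akt2 (91.3 and 44.1), 2.07-fold lower (interval 1.96 to 2.19). Their median log2 ratio of 0.60 was close to the 0.70 of all expressed genes.

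**Figure D3:**
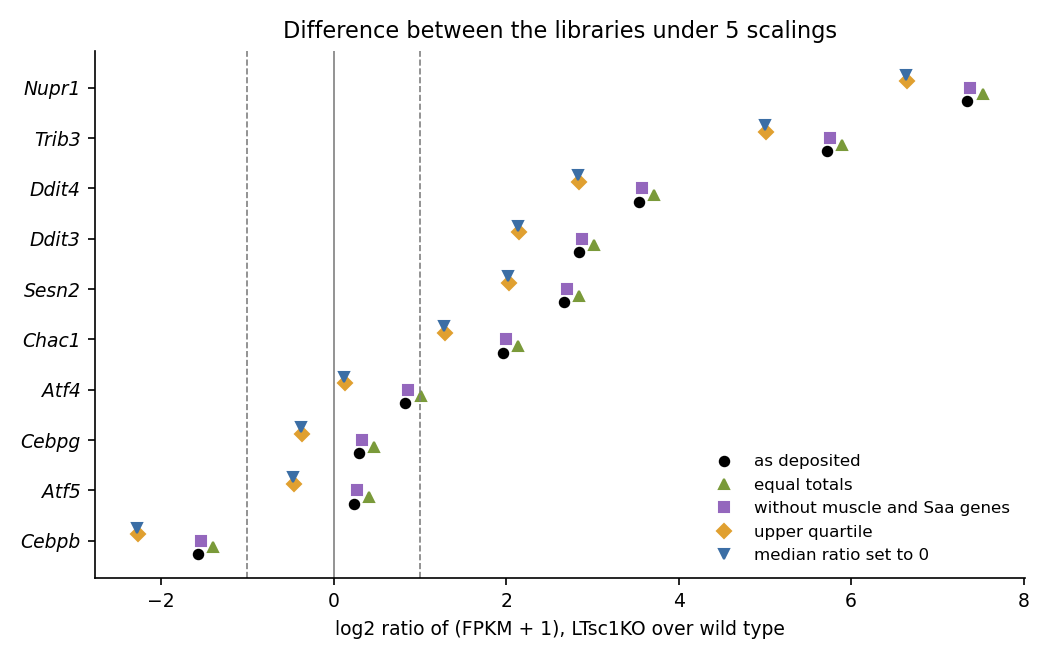
Log2 ratio of (FPKM + 1), the LTsc1KO-labelled library over the wild-type-labelled library, of each regulator under 5 scalings; dashed lines mark 2-fold. The 6 genes from Nupr1 to Chac1 stay right of the upper dashed line and Cebpb left of the lower one under all 5, Atf4 crosses the upper line only with equal totals (1.01), and Atf5 and Cebpg change sign.

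By level the order of the regulators differed between the libraries. In the wild-type-labelled library it ran from Atf5 and Cebpb through Atf4, Cebpg, Ddit3, Ddit4, Chac1 and Trib3 to Nupr1 and Sesn2, and the intervals of Ddit3 (9.12 to 11.8) and Ddit4 (7.55 to 9.22) overlapped, as did those of Trib3 (2.12 to 3.34) and Nupr1 (1.72 to 2.96). In the LTsc1KO-labelled library it ran from Nupr1, Atf5, Trib3 and Atf4 through Ddit4, Ddit3 and Cebpb to Chac1, Cebpg and Sesn2, with no overlap between neighbours. FPKM depends on the length assigned to each gene, which is uncertain where transcripts differ in length. Per kilobase of all annotated exons, Atf5 (263) came before Nupr1 (187) in the LTsc1KO-labelled library and Trib3 (95.6) came after Atf4 (107) and Ddit4 (104). By the same measure Sesn2 was not last, since Nupr1 (0.798) lay below it (1.32) in the wild-type-labelled library and Cebpg (7.56) below it (13.8) in the LTsc1KO-labelled library.

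Paralogs of the regulators showed which family members differed. Of 8 expressed paralogs, 2 were at least 2-fold higher and 1 lower, with a median log2 ratio of 0.04 (2 and 3 after median centring). Sesn3, another sestrin, was at an FPKM of 0.580 and 11.2, 19.3-fold higher (interval 13.7 to 27.9), whereas Sesn1, a sestrin known as a p53 target, was at 5.19 and 5.37. By FPKM Sesn1 was therefore the most abundant sestrin in the wild-type-labelled library, and Sesn2 and Sesn3 were above it in the other.

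Ddit4l, the relative of Ddit4, was at 3.15 and 16.4, 5.21-fold higher (interval 4.21 to 6.52). The other tribbles genes did not follow Trib3: Trib1 was at 19.1 and 11.4 and Trib2 was below the minimum at 0.429 and 0.218. Chac2, the constitutive relative of Chac1, was at 17.1 and 29.5, a log2 ratio of 0.75, and Nupr1l was below the minimum in both libraries (0.215 and 0.261).

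Within the C/EBP family the level of Cebpa, which encodes the C/EBP factor of differentiated hepatocytes, was nearly equal, at 96.0 and 99.2 (ratio 1.03, interval 1.00 to 1.07). Cebpd, an acute-phase regulator, was at 16.5 and 10.6, a log2 ratio of -0.59, and Cebpe, known from granulocytes, at 3.07 and 0.0275. Cebpe, the one paralog past the lower limit before median centring, rests on 106 reads and 1 read. Its ratio was 111-fold lower, with an interval from 19.6 to 4442. Cebpa was at 0.536 times the FPKM of Cebpb in the wild-type-labelled library and at 1.67 times in the LTsc1KO-labelled library. After median centring, Cebpa stood at -0.66 and Cebpd at -1.23 on the log2 scale. Cebpd and Trib1 (-1.34) then passed the lower limit as well.

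**Figure D4:**
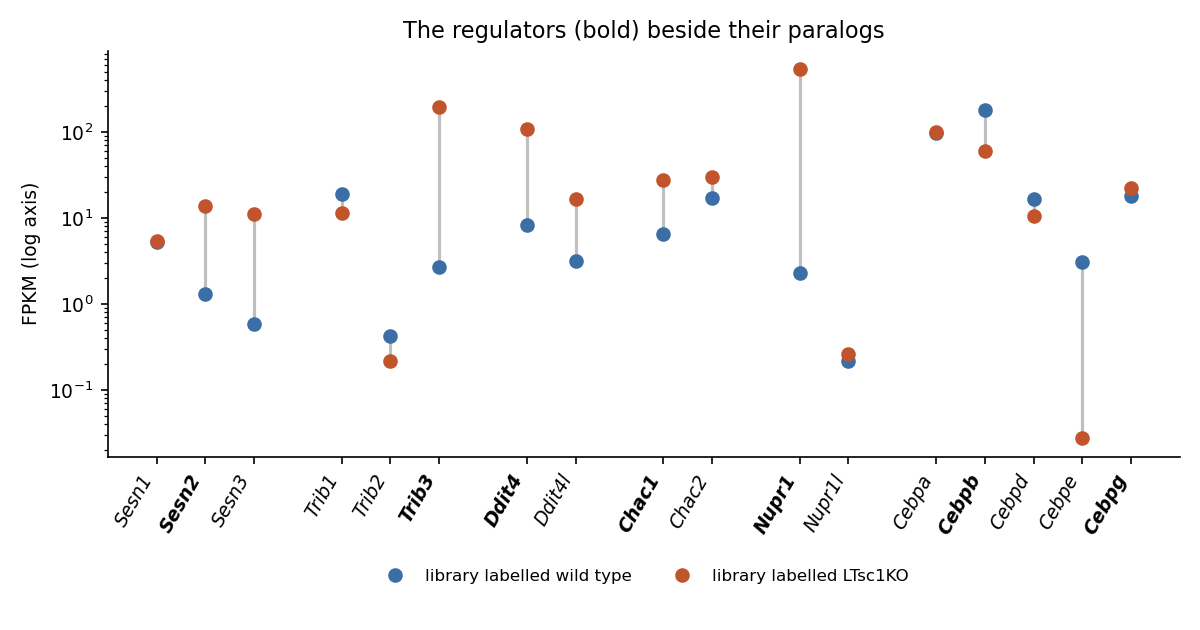
FPKM on a log axis of the regulators (bold) and their paralogs by family, blue for the wild-type-labelled library and orange for the LTsc1KO-labelled library. Sesn2 and Sesn3 both lie far apart between the libraries while the 2 points of Sesn1 (5.19 and 5.37) coincide, and Trib3 separates in the opposite direction to Trib1.

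Upstream of ATF4 stand the eIF2alpha kinases. Of the 4 kinases and the GCN2 activator Gcn1l1, 1 was at least 2-fold higher and none lower, with a median log2 ratio of 0.54. That gene was Eif2ak3, which encodes the endoplasmic reticulum kinase PERK, at an FPKM of 7.26 and 34.9, 4.81-fold higher (interval 4.33 to 5.35). Eif2ak1 (HRI, the heme-regulated kinase) was at 10.9 and 19.5, Eif2ak2 (PKR, activated by double-stranded RNA) at 10.7 and 16.0 and Eif2ak4 (GCN2, which senses uncharged tRNA) at 1.91 and 2.95. After median centring the log2 ratios of these 3 lay between -0.12 and 0.11, and that of Eif2ak3 was 1.43. Kinase activity and eIF2alpha phosphorylation were not measured.

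Of 10 genes for eIF2, its exchange factor eIF2B and the phosphatase subunits that reverse the phosphorylation, 2 passed the upper limit and none the lower (1 and none after median centring), with a median log2 ratio of 0.71. Eif2s1, which encodes eIF2alpha itself, was at 6.81 and 24.9 (3.66-fold higher, interval 3.25 to 4.13), and Eif2b2 at 14.3 and 43.6. Ppp1r15a encodes GADD34, the inducible phosphatase subunit and a well known target of ATF4 and CHOP. Its values were nearly equal as deposited, 5.41 and 5.44, a ratio of 1.01 (interval 0.859 to 1.18). Ppp1r15b, the constitutive subunit, was at 25.9 and 23.1. After median centring the log2 ratios of Ppp1r15a and Ppp1r15b were -0.57 and -0.83, within the limits. Of the feedback regulators named here, Trib3 thus lay far apart between the libraries and Ppp1r15a did not.

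Further targets of ATF4 were counted for comparison. Their lists were drawn from general knowledge of the pathway, but with earlier results of these data known. The counts therefore describe the lists and are not independent support. Of 26 enzyme genes 18 were at least 2-fold higher and 1 lower (13 and 3 after median centring), with a median log2 ratio of 1.70. Asns, the asparagine synthetase gene, was at an FPKM of 2.76 and 174, and Psat1 and Phgdh of serine synthesis and Mthfd2 of mitochondrial folate metabolism had log2 ratios of 7.17, 6.40 and 5.07. Cbs, of transsulfuration, was the lower one, at 343 and 164.

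Of 23 expressed targets that are not enzymes, 14 were at least 2-fold higher and 1 lower (10 and 2 after median centring), and their median was 1.53. Fgf21, a hepatokine, was at 0.616 and 75.6, 123-fold higher (interval 75.3 to 215), and Ndrg1 was 68.2-fold higher (interval 52.6 to 90.3). Fam129a, also called Niban, was at 0.563 and 53.4, and Sqstm1 stood at 3.44 on the log2 scale. The lower gene was the glutamine transporter Slc1a5, at 10.4 and 4.49. Atf3, a bZIP factor downstream of ATF4, had the largest log2 ratio (3.03) of 35 other expressed bZIP genes, with an FPKM of 1.92 and 22.8 (11.9-fold higher, interval 9.28 to 15.5). Among those 35 genes 9 were at least 2-fold higher and 4 lower, a balance that turned to 3 and 8 after median centring, with Nfe2l2 (NRF2) at 17.7 and 72.1 and Junb at 59.8 and 10.5.

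For CHOP, 2 of 7 expressed targets passed the upper limit and none the lower, with a median log2 ratio of 0.08. These were Trib3 and the death receptor gene Tnfrsf10b (0.124 and 4.27), whereas Ero1l (4.34 and 5.91) and Bbc3 (8.92 and 9.51) lay between the limits. The genes of the other branches of the unfolded protein response, IRE1 and ATF6, had a median of 0.01, with 4 of 20 past the upper limit and none past the lower, against 1 and 7 after median centring. The 4 were Ern1, which encodes IRE1 itself (9.61 and 53.3), Pdia6, Atf6 and Canx. Hspa5, the chaperone BiP, was at 534 and 880 and Xbp1 at 234 and 178. After median centring their log2 ratios were 0.005 and -1.11, so Xbp1 then passed the lower limit. Both genes were picked for their role after their values were seen.

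**Figure D5:**
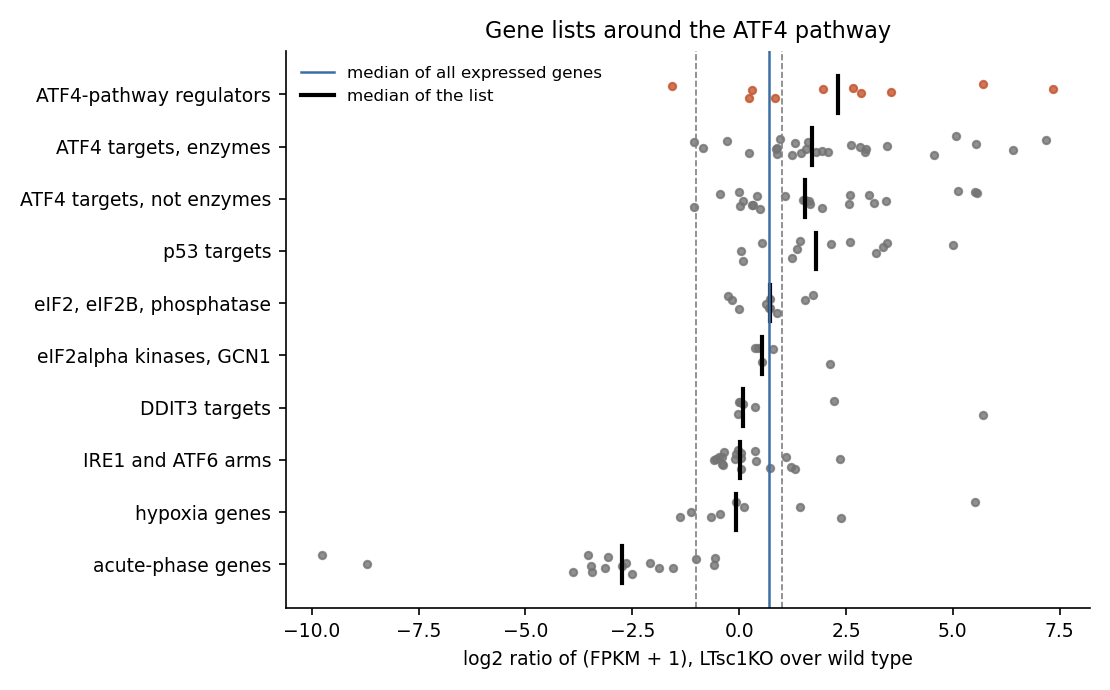
Log2 ratios of (FPKM + 1), the LTsc1KO-labelled library over the wild-type-labelled library, for the expressed genes of 10 lists, with each list's median as a black bar, the 2-fold limits dashed and the median of all expressed genes (0.70) in blue. Medians of the regulators (2.32), the p53 targets (1.79) and the 2 lists of ATF4 targets (1.70 and 1.53) lie right of the blue line. That of the IRE1 and ATF6 arms (0.01) lies left of it. Some genes are on more than 1 list.

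Some of the 10 regulators are known to answer to other inputs, and genes of those inputs are given beside them. For hypoxia, which induces Ddit4, 3 of 9 expressed genes were at least 2-fold higher and 2 lower, with a median log2 ratio of -0.07, and the balance turned to 2 and 4 after median centring; Ndrg1 and the glucose transporter Slc2a1 (5.66 and 33.4) led, and Egln3 was at 7.45 and 2.24. Glucocorticoids also induce Ddit4: none of 10 such genes passed the upper limit and 2, the metallothioneins Mt1 and Mt2, were lower (median -0.17; none and 4 after median centring). Of 12 targets of p53, which can induce Sesn2, 9 passed the upper limit and none the lower (median 1.79), against 6 and none after median centring, with Cdkn1a at 2.72 and 118 and Eda2r at 0.204 and 12.2. Of 17 genes listed as acute-phase genes with C/EBP control, given beside Cebpb, 15 passed the lower limit and none the upper (median -2.75). After median centring 17 passed the lower limit and none the upper. Saa2 and Saa1, close copies that can share reads, were at log2 ratios of -9.76 and -8.71. Their FPKM was 37890.7 and 42.8 for Saa2 and 34602.5 and 81.8 for Saa1. In the wild-type-labelled library both thus stood above Alb, the albumin gene (14350.7). The part of any of these inputs in the values of the regulators was not tested.

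Markers of other cells also differed between the libraries. All 19 expressed skeletal muscle markers passed the lower limit; the 20 listed genes summed to an FPKM of 4068 and 4.03, and 10 of them, Tnnt3 and Mb included, were at 0 in the LTsc1KO-labelled library. With muscle and Saa genes left out of the totals, Cebpb stood at -1.54 and the counts of 6 and 1 were the same. Over all expressed genes, 35.6% passed the upper limit and 6.15% the lower one. Summed FPKM in the wild-type-labelled library and then the LTsc1KO-labelled library was 48.4 and 638 for cholangiocyte markers and 55.6 and 125 for macrophage markers. Of the cholangiocyte markers, 5 of 7 expressed were at least 2-fold higher, and Spp1 alone was at 36.9 and 575. Of 8 expressed macrophage markers, 2 were at least 2-fold higher and 1, Marco (3.37 and 0.505), was lower. Cd68 alone was at 1.32 and 52.3 and Csf1r at 1.94 and 4.59, whereas Clec4f was at 13.5 and 11.7 and Cd5l at 9.41 and 6.10. Neutrophil markers summed to 147 and 69.9 (4 of 8 lower) and erythroid markers to 783 and 73.7 (4 of 6 lower). Endothelial markers summed to 19.1 and 34.2, with 2 of 5 expressed at least 2-fold higher and none lower. Most of that sum was Stab2, at 13.2 and 28.3, and Lyve1 was at 0.192 and 1.54. Other endothelial markers were lower, short of the limit: Pecam1 (1.98 and 1.23), Cdh5 (0.863 and 0.462), Kdr (0.701 and 0.374) and Vwf (1.05 and 0.719). The endothelial list thus went in both directions. Lymphocyte markers (2.60 and 2.49) were low in both. Stellate cell markers summed to 163 and 30.2, of which Des, also a muscle gene, was 152 and 0.462. Of 6 expressed stellate cell markers, 3 were at least 2-fold higher and 1, Des, was lower. Rgs5 was at 4.71 and 18.6 and Col1a1 at 0.563 and 3.35. Reln (1.81 and 1.05) was lower but within the limits, as were Lrat (0.522 and 0.331) and Pdgfrb (0.688 and 0.440), both below the minimum. The list thus went in both directions, and most of the lower sum was Des. Hepatocyte markers summed to 41569 and 26098 (1 of 10 higher and 4 lower), with Alb 2.59-fold lower (interval 2.58 to 2.61) and Hnf4a at 259 and 325. After median centring the counts past the upper and lower limits were 2 and none of 6 for cholangiocyte markers, 1 and 2 of 8 for macrophage markers, none and 7 of 8 for neutrophil markers, none and 5 of 5 for erythroid markers and 1 and 6 of 10 for hepatocyte markers. The same counts were 1 and 1 of 5 for stellate cell markers and none and none of 3 for endothelial markers. The part of these cells in the values of the 10 regulators was not tested.

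Exact 35-base stretches shared with transcripts of other genes were counted for the 10. Near-identical copies and sequence outside annotated transcripts were not searched. No 35-base stretch of the annotated transcripts of Atf4, Trib3, Chac1, Sesn2 or Ddit4 occurs in a transcript of another gene. The share was 19.0% for Cebpb, all with Tmem189, and between 1.05% and 2.56% for Atf5, Ddit3, Nupr1 and Cebpg.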

How the data were processed

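RNA sequencing of 2 mouse livers, 1 library per genotype, was analysed. Per the labels' protocols, the tissue was frozen, its RNA isolated with a Qiagen column kit and Illumina libraries made. The authors deposited FPKM, in 1 table for each library. Bowtie 0.12.2, CASAVA 1.7 and the build mm8 are listed, without roles, in the submitters' processing notes. Counting tool, annotation and use of strand: not given in the sources used here. Of 35275 Ensembl IDs, 34490 (97.8%) matched a GENCODE M21 symbol, and the 3 repeated symbols were summed. Coordinates printed are those of GRCm38; the tables hold none.

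FPKM were compared as log2((FPKM + 1)/(FPKM + 1)), the LTsc1KO-labelled library over the wild-type-labelled library, which understates the difference of low genes; 2-fold limits are on this scale, and a fold printed for a gene is the ratio of FPKM. Totals of 27919645 and 29351163 reads were the most frequent value of 1 read's worth at rounded mean transcript lengths, held by 859 and 911 genes. Reads came out whole in both libraries, within the rounding of the printed decimals, for 51.1% of 16964 genes at that length, among them 6 of the 10 regulators; for Atf4, Atf5, Ddit4 and Cebpg the nearest length that gave whole reads, within 0.5 to 1.5 times, was used. Other genes were treated alike, and where no such length gave whole reads, as for Eif2s1, reads were estimated at the mean transcript length. Fold intervals are Clopper-Pearson and level intervals Poisson, both 95% and for counting error only. No count model and no test was used.

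The 10 regulators and the 22 other lists were chosen with earlier results of these data known. Named genes were the 10, Tsc1, list members by role for kinases, eIF2 subunits and paralogs, marker genes that define a cell type, the 3 genes nearest to Atf4, and from each other list the 4 largest absolute log2 ratios and the largest opposite one; Tmem189 and Mars are named for overlap. Alternatives were other pseudocounts, minimums, scalings and a 4-fold limit; exon-union lengths and the freer motif were added after the data were seen. The scripts were tested on simulated data. Scripts ran in Python 3.11.15 with scipy 1.17.1, pandas 2.3.3, numpy 2.4.6 and, for the figures, matplotlib 3.10.9.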

Additional observations from a re-analysis of the deposited data

How the results depend on the processing

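Over pseudocounts of 0.1 and 5, no minimum or a minimum of 5 FPKM, and the 4 other scalings, the number of regulators at least 2-fold higher was 6, or 7 with equal totals, where Atf4 passed the limit (1.01), and the number at least 2-fold lower was 1. With a 4-fold limit the counts were 5 and 0. Atf5 and Cebpg changed sign, to -0.48 and -0.38 after median centring and to -0.46 and -0.37 with upper quartile scaling. Of 60 alternative log2 ratios of the regulators, 25 stayed within counting error of the reported value, 31 moved beyond it in the same direction and 4 were those of opposite sign. Per kilobase of exon union, 13 of 20 levels moved beyond counting error. Over all expressed genes, the 4411 higher and 762 lower became 2225 and 459 with a pseudocount of 5, 1848 and 1504 after median centring, 1876 and 1477 with upper quartile scaling, and 1098 and 283 with a 4-fold limit. Reads limit Nupr1 and Trib3 most, at 56 and 79 in the wild-type-labelled library. No paired analysis was possible because each genotype has 1 library.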
